A study of Mus musculus with 26 samples.

Results

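The glycolytic enzymes Gapdh, Aldoa, Eno1, Eno2, Pgk1, Tpi1, Gpi1, Ldha, Ldhb and Hk1 were followed through ribosome footprinting and RNA-Seq of the mouse striatum. They were taken by gene symbol from the 3 tables of transcripts, and every transcript listed under a symbol was kept. All 10 of 10 symbols were listed in each table, as 13 transcripts of 8576 in the table of GS LRRK2 TG mice, 13 of 8576 in that of GS/DA LRRK2 TG mice and 13 of 9561 in that of LRRK2 KO mice. Gapdh was listed 4 times in both transgenic tables and 3 times in the LRRK2 KO table, where Aldoa was listed 2 times, and the remaining members were listed 1 time each.

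Mice with altered LRRK2, a large protein with kinase and GTPase activity, were compared with matched controls to measure how much mRNA each gene had and how densely ribosomes occupied it. The series holds 26 samples, 24 of the striatum and 2 of the ventral midbrain, and the ventral midbrain samples were not used here. In ribosome footprinting the fragments of mRNA shielded by ribosomes are sequenced after nuclease digestion, and RNA-Seq counts fragments of the RNA itself. All samples are labelled as C57BL/6 and 3 months old, and each striatum sample was a pool of caudate putamen from 3 mice of mixed sex. GS LRRK2 TG mice carried a G2019S LRRK2 transgene and GS/DA LRRK2 TG mice a kinase-dead G2019S/D1994A LRRK2 transgene, in high copy lines driven from the CaMKII promoter through tTA (Tet-off) after doxycycline was withdrawn at weaning. Their controls were non-transgenic (non-TG) mice, and LRRK2 KO mice, which lack LRRK2, were set against wild-type (WT) mice. The labels list 3 footprinting and 3 RNA-Seq samples of non-TG striatum, 2 and 2 of GS LRRK2 TG, 2 and 2 of GS/DA LRRK2 TG, and 3 footprinting and 2 RNA-Seq samples each of WT and LRRK2 KO. Only 1 set of non-TG samples is labelled for both transgenic comparisons, and therefore no likeness between them was computed.

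Glycolysis splits glucose into pyruvate in the cytosol, with a preparatory phase that spends ATP and a payoff phase that returns ATP and NADH. Lactate dehydrogenase converts pyruvate to lactate and back, which regenerates the oxidized cofactor that the payoff phase needs. Brain tissue depends on glucose, and neurons and glia express different forms of several of these enzymes.

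Each table gives a mean of normalized reads per transcript for each genotype and assay, and changes are log2 ratios of the genotype's mean to its control's. Translation efficiency (TE) is the log2 ratio of footprints to RNA-Seq reads within a genotype, taken from the means, and the TE change is the difference between genotypes. A change over 0.5 in size counted as past the fold threshold, and a TE change was also expressed as a z score over all transcripts of its table, called at 1.5 or beyond in either direction. Reads per library could be worked back from 10 of the 12 columns of means, each of which decoded into 2 libraries, including the WT and LRRK2 KO footprinting columns and both non-TG columns of the GS/DA LRRK2 TG table, for which the labels list 3 samples each. In every group the shallower library is the one with fewer reads, and paired values below give the shallower library before the deeper one; the shallower libraries of the 2 assays need not come from the same mice. The libraries of the LRRK2 KO table held 3090147 and 5266915 footprints in WT, 2841145 and 5995653 in LRRK2 KO, and 3082469 and 7390149 RNA-Seq reads in WT against 4495195 and 10717123 in LRRK2 KO. Depth in the GS/DA LRRK2 TG table was 8557735 and 14024418 footprints for non-TG, 7558790 and 17899166 for GS/DA LRRK2 TG, and 11275205 and 11820608 RNA-Seq reads for non-TG against 11051540 and 13343235 for GS/DA LRRK2 TG. GS LRRK2 TG libraries held 7140805 and 8085197 footprints and 8570134 and 14318718 RNA-Seq reads, while the non-TG columns of that table could not be decoded, so its control is given as a mean alone.

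Lrrk2 itself (uc007xhz.1) served as the check of the genotype labels. Normalized Lrrk2 footprints were 690.1 and 400.3 in the WT libraries and 149.7 and 102 in LRRK2 KO. RNA-Seq of Lrrk2 gave 733 and 1278 normalized reads in WT and 270.0 and 423 in LRRK2 KO. Both LRRK2 KO libraries lay below both WT libraries in either assay, without reaching 0. In the GS/DA LRRK2 TG table, Lrrk2 footprints were 1224 and 1445 in non-TG and 4766 and 7267 in GS/DA LRRK2 TG, so the groups did not overlap. Lrrk2 RNA-Seq of the same table, at 560.2 and 5233 in libraries labelled non-TG and 5038 and 404 in those labelled GS/DA LRRK2 TG, held 1 high and 1 low library under each label. The GS LRRK2 TG libraries held 7052 and 3320.5 normalized Lrrk2 footprints, both above the non-TG mean of 2524, and 214 and 3549.6 RNA-Seq reads, on either side of the non-TG mean of 2105. Lrrk2 RNA-Seq thus goes against the label of the deeper non-TG and deeper GS/DA LRRK2 TG library and the shallower GS LRRK2 TG library. Transgenic RNA-Seq and TE changes are given as labelled. RNA-Seq libraries of 1 label also differed over all transcripts, by a median size of 0.97 log2 in non-TG, 1.16 in GS/DA LRRK2 TG and 1.15 in GS LRRK2 TG. That size was 0.39 in WT and 0.33 in LRRK2 KO. Over all transcripts the shallower non-TG library matched the deeper GS/DA LRRK2 TG library, and the deeper non-TG the shallower (rho -0.978). Lrrk2 RNA-Seq was alike within each of these pairs, at 560.2 and 404 and at 5233 and 5038. The paper states that part of the lysate was checked by Western blot for transgene expression. The source of the Lrrk2 split was not tested.

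Tissue identity was read from 9 marker lists. Striatal spiny neuron markers were listed for 7 of 8 symbols, without Drd1, which the tables carry as Drd1a, and Ppp1r1b was their most abundant gene. Their summed RNA-Seq mean was 33286 normalized reads in WT, against 3345 for 3 of 3 cortical projection neuron markers, so the striatal markers stood far above the cortical ones. In LRRK2 KO the summed means were 35763 and 2795. Oligodendrocyte markers (4 of 4, highest Mbp) summed to 9909.9 in WT and 9970.2 in LRRK2 KO, and astrocyte markers (6 of 6, highest Slc1a2) to 5135 and 3903. Microglia were represented by 3 of 4 markers (highest Csf1r), without Aif1, at 464 and 521, and the endothelial markers Cldn5, Flt1 and Pecam1 were not listed in any table. Blood markers (3 of 5, highest Hba-a2, without Hba-a1 and Hbb-b2) summed to 7566 in WT and 6465 in LRRK2 KO. Choroid plexus was represented by Ttr alone (212 and 104) and skeletal muscle by Acta1 alone (1965 and 1135). Because the samples are bulk tissue, fewer cells of a type and less RNA per cell cannot be told apart.

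Levels of different members were compared per kilobase of coding sequence (CDS), for members listed 1 time in a table. In the non-TG footprinting mean of the GS LRRK2 TG table, the order was Aldoa at 39414 normalized footprints per kilobase, Ldhb at 19198, Eno2 at 19032, Tpi1 at 12018, Pgk1 at 8784, Gpi1 at 7586, Ldha at 6360.3, Eno1 at 2843 and Hk1 at 1196. Among these members Aldoa thus stood highest and Hk1, which catalyses the entry step, lowest. Gapdh, listed 4 times there, was not ranked. The RNA-Seq means of the same mice ran from 32526 per kilobase for Aldoa and 15377 for Ldhb to 2178 for Eno1 and 1333 for Hk1. Non-TG libraries of that table were not recovered, and in its GS LRRK2 TG footprinting libraries, with the same order, Ldhb (16796 and 20213) overlapped Eno2 (18299 and 15415), and Pgk1 (9953 and 6654) overlapped both Tpi1 (12219 and 9898) and Gpi1 (7272 and 7104), while other neighbours did not overlap. In WT mice of the LRRK2 KO table the order leaves out Gapdh and Aldoa, listed 3 and 2 times there. Eno2 came first among the other members. WT footprints per kilobase were 7472 and 7796 for Eno2, 5127 and 6689 for Ldhb and 4056 and 4944 for Tpi1. Below them came Pgk1 at 3234 and 3696, Gpi1 at 3055 and 3047 and Ldha at 2701 and 2682. Eno1, at 694 and 1040.2, and Hk1, at 888 and 632, were lowest and the only neighbours whose libraries overlapped. WT RNA-Seq per kilobase was less separated: it was 9127 and 4908 for Eno2 and 2958 and 1388 for Ldha, and every neighbouring pair overlapped except Ldha and Hk1. Together the 13 transcripts held 2.23% of the footprinting total and 1.68% of the RNA-Seq total in the WT means, against 2.19% and 1.38% in LRRK2 KO. In the transgenic tables they held 2.97% and 1.90% in the non-TG means of the GS LRRK2 TG table, 2.87% and 1.84% in GS LRRK2 TG, 2.90% and 1.70% in the non-TG controls of GS/DA LRRK2 TG, and 3.02% and 1.73% in GS/DA LRRK2 TG. The members' median TE was 0.49 in the non-TG means of the GS LRRK2 TG table, where the median of all transcripts was -0.17, and 0.053 in WT against -0.64.

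LRRK2 KO against WT compares mice without LRRK2 with mice that have it. All 13 of 13 member transcripts had an RNA-Seq mean below WT, where 48.7% of all transcripts did, and their median change was -0.23 against 0.0075 for all transcripts. Footprints stayed near 0, with a median of -0.025 (0.016 for all transcripts) and 8 of 13 below WT, where 45.6% of all transcripts lay. TE was accordingly above WT in 13 of 13, with 53% of all transcripts on that side, and a median change of 0.21 against 0.017. With a low-value filter on every group mean, this background moved toward the members in the limma fit described below. Filtered RNA-Seq medians were -0.069 for all 1622 transcripts and -0.18 for 10 member transcripts. Filtered TE medians were 0.081 for all 1615 transcripts and 0.12 for 10 member transcripts. Without the filter, that fit gave 0.0048 and -0.19 in RNA-Seq and 0.013 and 0.13 in TE. Shares below or above WT were not counted after the filter. No member passed 0.5 in footprints, as 1% of transcripts did upward and 1.07% downward, and in RNA-Seq 2 of 13 passed it downward (2.51% of transcripts) and 0 upward (0.669%). The same 2 transcripts, of Aldoa and Gapdh, passed 0.5 upward in TE (4.06% of transcripts) and 0 downward (2.75%), and 3 of 13 reached a z of 1.5 (6.23% of transcripts), with 0 at -1.5 or below (6.02%). The RNA-Seq median turned with single libraries: it was 0.43 without the shallower WT library and 0.15 without the deeper LRRK2 KO library, both above 0, and -0.62 without the deeper WT library and -0.67 without the shallower LRRK2 KO library. Leaving out 1 library unbalances the shallower and deeper libraries, between which members differed more than between genotypes, and within shallower and deeper libraries the RNA-Seq medians were both below 0, at -0.30 and -0.054. The TE median likewise became -0.51 without the shallower WT RNA-Seq library, -0.19 without the deeper LRRK2 KO RNA-Seq library, 0.59 without the deeper WT RNA-Seq library and 0.62 without the shallower LRRK2 KO RNA-Seq library. Leaving out footprinting libraries gave a TE median of 0.061 without the shallower WT library and 0.10 without the deeper LRRK2 KO library. For footprints, the median crossed 0 to 0.013 without the deeper WT library and 0.037 without the shallower LRRK2 KO library, and was -0.18 without the shallower WT library and -0.14 without the deeper LRRK2 KO library.

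The preparatory enzymes begin with Hk1, the hexokinase that phosphorylates glucose. Its RNA-Seq was 2671 and 1991 normalized reads in WT and 2326 and 1949 in LRRK2 KO, and its footprints were 2831 and 2015 in WT and 2751 and 1889 in LRRK2 KO. The shallower library was high in either genotype and assay, the groups overlapped, and the changes of the means were -0.13 in RNA-Seq, -0.062 in footprints and 0.063 in TE. Gpi1, which isomerizes glucose 6-phosphate, had RNA-Seq of 7134 and 4144 in WT and 6667 and 3917 in LRRK2 KO. Gpi1 footprints were 5113 and 5099.9 in WT and 4643 and 5078 in LRRK2 KO. The RNA-Seq groups overlapped, while both LRRK2 KO footprinting libraries lay below both WT libraries, by a change of -0.071 in the means, beside -0.092 in RNA-Seq. Aldoa, the aldolase that cleaves fructose 1,6-bisphosphate, was listed as uc009jst.2 and uc007nos.2, and whether either stands for a copy of the gene was not determined. Transcript uc009jst.2 had RNA-Seq of 24468 and 11874 in WT and 20342 and 11437 in LRRK2 KO, with footprints of 17384 and 20316 against 17142 and 19919. The second Aldoa transcript, uc007nos.2, had RNA-Seq of 1922 and 178 in WT and 377 and 149.7 in LRRK2 KO, with footprints of 3476 and 2491 against 3265 and 2708. A single library, the shallower WT one, stood high in RNA-Seq of uc007nos.2, the groups overlapped, and the footprinting groups overlapped as well. From these values came the largest member changes of the comparison, -1.99 in RNA-Seq and 2.00 in TE (z 7.24), whereas uc009jst.2 differed by -0.19 and 0.17. Tpi1, the isomerase that makes both trioses usable, had RNA-Seq of 6331 and 3358 in WT and 5178 and 3101 in LRRK2 KO, a change of -0.23 with overlapping groups, and a footprinting change of -0.095.

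The payoff phase starts with Gapdh, the dehydrogenase that forms NADH, and its 3 transcripts in the LRRK2 KO table differed in which libraries held their reads. RNA-Seq of uc007dwf.1 was 12983 and 7.47 normalized reads in WT and 7682 and 9.36 in LRRK2 KO. Footprints of uc007dwf.1 were 0 and 12052 in WT and 0 and 12485 in LRRK2 KO. Its footprints therefore came from the deeper libraries and nearly all its RNA-Seq reads from the shallower ones, so the TE change of 0.81 (z 2.89) and the RNA-Seq change of -0.76 compared 1 library of each genotype and assay. Transcript uc007igj.1 had WT footprints of 0 and 27289 and LRRK2 KO RNA-Seq of 24144 and 0, again with 1 library at 0, and more than 1 pair of library values could be fitted to its other means. Its changes were 0.019 in footprints, -0.45 in RNA-Seq and 0.47 in TE (z 1.65). Footprints of uc009dts.1 were 2967 and 32974 in WT and 2911 and 33581 in LRRK2 KO, low in the shallower and high in the deeper library of both genotypes, with changes of 0.022 in footprints and -0.28 in RNA-Seq. Pgk1, the kinase that makes the first ATP of the pathway, had RNA-Seq of 5422 and 2074 in WT and 3984 and 2082 in LRRK2 KO, and footprints of 4046 and 4624 against 3819 and 4344. The RNA-Seq difference sat in the shallower libraries, where the change was -0.44, against 0.0057 in the deeper ones, and the groups overlapped in both assays. Eno1, an enolase that dehydrates 2-phosphoglycerate and is made in many cell types, had RNA-Seq of 1497 and 392 in WT and 1137 and 334 in LRRK2 KO. Eno1 footprints were 969.9 and 1453 in WT and 1009.9 and 1469 in LRRK2 KO, so the deeper library was low in RNA-Seq and high in footprints, the groups overlapped, and the means differed by -0.36 and 0.033. Eno2, the neuronal enolase, had RNA-Seq of 11883 and 6389.9 in WT and 9231 and 6307 in LRRK2 KO, and footprints of 9729 and 10151 against 9815 and 9717. Its RNA-Seq change was -0.23 and its footprinting change -0.025, with overlapping groups in both assays.

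The lactate dehydrogenase subunits close the list. Ldha, the subunit of the muscle-type enzyme, had RNA-Seq of 3464 and 1626 in WT and 2818 and 1566 in LRRK2 KO, and footprints of 3163 and 3141 against 3020 and 2959. RNA-Seq overlapped between genotypes, but both LRRK2 KO footprinting libraries lay below both WT libraries, with changes of -0.22 and -0.076. Ldhb, the subunit of the heart-type enzyme, had RNA-Seq of 8349.7 and 4026 in WT and 7253 and 3935 in LRRK2 KO, and footprints of 5137 and 6703 against 4802 and 6529. Groups overlapped in both assays of Ldhb, and the changes were -0.15 and -0.063. Gpi1 and Ldha were the 2 of 12 recovered member transcripts whose footprints were lower without overlap, beside 6.4% of all transcripts, and 0 of 12 were higher without overlap (6.21%). In RNA-Seq, 0 of 11 recovered member transcripts separated the genotypes, against 7.02% of all transcripts lower and 7.03% higher.

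**Figure D1:**
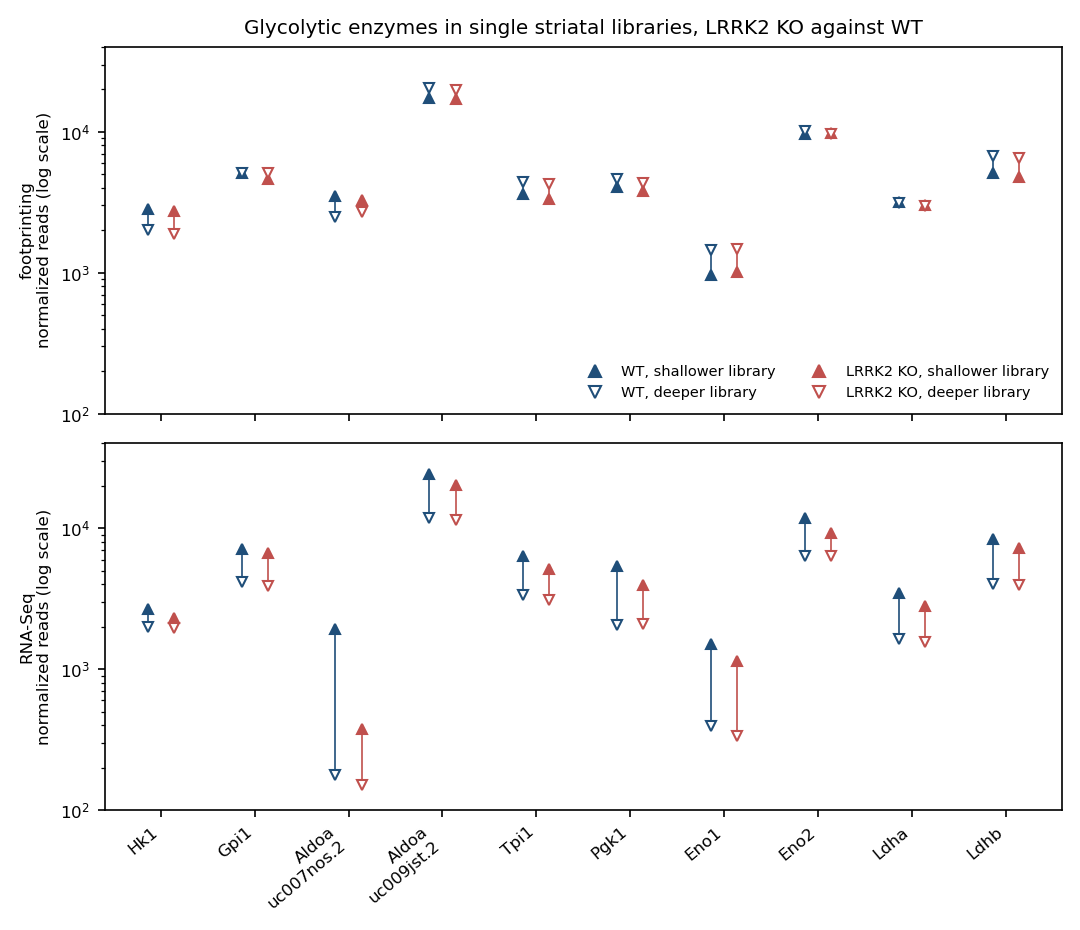
Normalized reads (log axis) of 10 member transcripts in each recovered library of the LRRK2 KO table, with footprinting above and RNA-Seq below, WT in blue and LRRK2 KO in red, the shallower library as a filled upward triangle and the deeper one as an open downward triangle; Gapdh is left out. RNA-Seq of every transcript shown lies lower in the deeper library of either genotype, and only the shallower WT library stands high for Aldoa uc007nos.2.

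The spread between libraries of 1 genotype exceeded the change between genotypes in RNA-Seq of most members. From the shallower to the deeper library, 11 of 11 recovered member transcripts were lower in WT and 12 of 12 in LRRK2 KO, where 49.2% and 49.4% of all transcripts were. The median log2 ratio of deeper to shallower was -1.05 in WT and -0.86 in LRRK2 KO, against 0.0094 and 0.0067 over all transcripts. Members' footprints leaned the other way, with medians of 0.22 and 0.20. Since the shallower WT library resembled the shallower LRRK2 KO library in this respect, and likewise the deeper ones, genotypes were also compared within each pair. RNA-Seq was then lower in LRRK2 KO for 11 of 11 member transcripts between the shallower libraries, with a median of -0.30, and for 9 of 11 between the deeper ones, with a median of -0.054. The exceptions in the deeper pair were Pgk1 and Gapdh uc007dwf.1, and the medians of all transcripts were 0.0014 and 0.0030. Footprinting medians of the members within pairs were -0.054 and -0.033, with 9 of 12 and 8 of 12 lower in LRRK2 KO, and those of all transcripts were -0.021 and 0.050. The shares of all transcripts lower within a pair were not counted. Aldoa uc007nos.2 RNA-Seq differed by -2.32 between the shallower and -0.23 between the deeper libraries. Several marker lists differed between libraries along with the members' RNA-Seq. Summed cortical projection neuron markers (3 of 3 listed, highest Slc17a7) were 4377 and 2313 in WT and 3809 and 1781 in LRRK2 KO, and striatal markers were 39813 and 26759 against 43614 and 27912. Blood markers summed to 9093 and 6039 in WT and 6883 and 6047 in LRRK2 KO, Acta1 to 2871 and 1058 against 1318 and 951, and astrocyte markers to 6293 and 3977 against 3923 and 3883. All of these were highest in a shallower library, whereas oligodendrocyte markers (4 of 4) were higher in the deeper ones, at 6866 and 12954 in WT and 8028 and 11913 in LRRK2 KO. Ttr was 143 and 282 in WT and 173 and 34.8 in LRRK2 KO, and microglial markers were 633 and 296 against 747 and 296. The part of cell composition and depth in the members' values was not tested, and Aldoa uc007nos.2 and Acta1 shared the high shallower WT library.

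A limma fit over all transcripts, on log2 of normalized reads plus 10, tested footprints, RNA-Seq and TE, and the p-values measure spread between samples and nothing else. Of the members it tested 12 transcripts in footprinting, 11 in RNA-Seq and 11 in TE, and called 0 in each at an adjusted p under 0.05. Across all transcripts limma also called 0 (0%) in footprinting, RNA-Seq and TE, with 16, 7 and 4 at an unadjusted p under 0.05, of which 0 were members. With the matched pairs of libraries as a block, limma called 15 of 9547 transcripts in footprinting (0.157%), 13 of 9540 in RNA-Seq (0.136%) and 0 of 9533 in TE. At an unadjusted p under 0.05 that fit had 304 in footprinting (3.18%), 433 in RNA-Seq (4.54%) and 185 in TE (1.94%). These included 0, 1 and 1 members. The 13 included 1 member, Aldoa uc007nos.2, with a fitted RNA-Seq change of -1.28 ± 0.22 (SE) and an adjusted p of 1.25e-05 by limma, lower in LRRK2 KO in both pairs, against an adjusted p of 1 and an SE of 1.12 without the block. This call rests on the shallower WT library: the changes within the 2 pairs were -2.32 and -0.23, and the SE with the block draws on the spread of the other transcripts. For comparison, Lrrk2 had an adjusted p of 1 by limma in either assay without the block, and with it a change of -2.003 in footprints (adjusted p 3.79e-22) and -1.49 in RNA-Seq (adjusted p 2.05e-08), lower in both pairs. The pairs were matched by the values themselves, and in the remaining fits, including those without 1 library, limma called 0 members.

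GS LRRK2 TG against non-TG compares the G2019S transgene with none, and here 12 of 13 member transcripts had a footprinting mean below non-TG, where 48.8% of all transcripts did. Changes were small: with RNA-Seq libraries as labelled, which Lrrk2 does not bear out for the shallower one, the median was -0.078 in footprints (0.0034 for all transcripts), -0.045 in RNA-Seq (-0.024) and -0.045 in TE (0.021). RNA-Seq was below non-TG in 9 of 13, with 55.7% of all transcripts on that side, and TE in 9 of 13, with 45.2%. No member passed 0.5 in footprints, RNA-Seq or TE, as 0.14%, 0.233% and 3.32% of transcripts did upward and 0.198%, 2.72% and 0.257% downward. None reached a z of 1.5 or -1.5 either, where 8.01% of transcripts lay above and 3.91% below. Control libraries were not recovered, so these are differences of means without a test, and with the table's median change subtracted the members' medians were -0.081, -0.021 and -0.067. Between the libraries labelled GS LRRK2 TG, RNA-Seq of the 8 recovered member transcripts differed by a median size of 0.60 log2.

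Hk1 footprints were 4114 and 3084 in the GS LRRK2 TG libraries, around the non-TG mean of 3812, and its RNA-Seq of 4457 and 4637 in the libraries labelled GS LRRK2 TG lay above the non-TG mean of 4249.6 in both libraries. Hk1 differed by -0.083 in footprints, 0.10 in RNA-Seq and -0.18 in TE. Footprints of Gpi1 (12173 and 11891, non-TG mean 12698) were below the control mean in both libraries, with a change of -0.078. The same held for Aldoa, with 48582 and 45457 against 49977 and a change of -0.088, whereas Tpi1, with 10960.2 and 8879, lay on either side of 10780.1 and differed by -0.12. In the payoff phase, Gapdh uc009dts.1 differed by -0.038 in footprints and -0.10 in RNA-Seq, and uc007igj.1 and uc007dwf.1 by -0.060 and -0.039 in footprints. Gapdh uc012gth.1 was the only member with higher footprints, by 0.27, beside 0.38 in RNA-Seq, and the libraries labelled GS LRRK2 TG held 21072 and 0 normalized footprints and 2.80 and 2055 RNA-Seq reads, so each assay drew on 1 library. Pgk1 footprints were 12452 and 8324 against a non-TG mean of 10989, 1 library above and 1 below, with a change of -0.081. Eno1 had the lowest TE change of the members, -0.25 (z -1.38), from -0.091 in footprints and 0.16 in RNA-Seq. The libraries labelled GS LRRK2 TG behind it held 4479 and 2978 Eno1 footprints and 2796 and 3987 RNA-Seq reads, spanning the non-TG means of 3972 and 3042. Eno2 had the lowest footprinting change, -0.18, with 23825 and 20071 in the GS LRRK2 TG libraries, both below the non-TG mean of 24779. Ldha footprints, at 6985 and 7326, were also below the control mean of 7448 in both libraries, and those of Ldhb, at 16829.5 and 20253, lay on either side of 19236. Footprints differed by -0.058 for Ldha and -0.053 for Ldhb, and TE by -0.078 and 0.0092. Among the marker lists of this table, median footprinting changes were -0.086 for striatal spiny neurons (7 of 8 listed), -0.24 for cortical projection neurons (3 of 3, highest Slc17a7), 0.20 for oligodendrocytes (4 of 4), 0.11 for astrocytes (6 of 6) and 0.11 for microglia (2 of 4). Blood markers (3 of 5) had -0.15, Ttr -2.45 and Acta1 -0.14, and the part of these cells in the members' values was not tested. Summed cortical footprints were 1612 in the non-TG mean and 2302 and 431 in the GS LRRK2 TG libraries. RNA-Seq medians were -0.033 for striatal, -0.39 for cortical, 0.18 for oligodendrocyte, 0.088 for astrocyte and -0.070 for microglial markers. They were 0.34 for blood markers, -1.89 for Ttr and 0.12 for Acta1. Summed RNA-Seq in the libraries labelled GS LRRK2 TG was 27586 and 8900 for oligodendrocyte, 49017 and 9721 for blood and 732 and 1410 for cortical markers.

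GS/DA LRRK2 TG against non-TG compares the kinase-dead transgene with none. Footprinting means were above non-TG in 10 of 13 member transcripts, with 47.5% of all transcripts on that side, RNA-Seq in 9 of 13 (64.7%) and TE in 7 of 13 (33.5%). RNA-Seq libraries were taken as labelled. Lrrk2 RNA-Seq did not follow those labels, whereas the summed cortical projection neuron markers given below did. The medians were 0.047 in footprints (-0.0068 for all transcripts), 0.034 in RNA-Seq (0.055) and 0.0045 in TE (-0.055). None passed 0.5 in footprints, RNA-Seq or TE, against 0.49%, 2.46% and 0.07% of transcripts upward and 0.326%, 0.257% and 2.31% downward. By z score 1 of 13, Gapdh uc012gth.1, reached 1.5 (1.79, with 3.65% of transcripts called upward) and 0 reached -1.5 (7.36%). Scaling the recovered reads to library totals moved the median footprinting change of all transcripts by -0.14 and the TE change by -0.11, and it brought the members' footprinting median to -0.10, their RNA-Seq median to -0.052 and their TE median to -0.093, where only 3, 7 and 3 transcripts could be rescaled. The same transcripts had medians of 0.032, -0.022 and 0.012 before rescaling, and the medians of all transcripts after it were -0.14, 0.032 and -0.17, so the members' footprinting and TE medians lay above those of all transcripts under either scaling and the RNA-Seq median below. Single libraries also turned the sign: over the 9 or 7 transcripts recovered in the remaining libraries, the RNA-Seq median was -0.12 without the deeper non-TG library, -0.071 without the deeper GS/DA LRRK2 TG library, 0.21 without the shallower non-TG library and 0.17 without the shallower GS/DA LRRK2 TG library. Over 3 or 7 transcripts, footprints had a median of 0.11 without the shallower non-TG library, 0.13 without the deeper non-TG library and -0.00031 without the deeper GS/DA LRRK2 TG library. TE medians without 1 library ran from -0.18, without the shallower non-TG RNA-Seq library, to 0.15, without the deeper one. Leaving out 1 library unbalances the pairs of libraries matched by their values. Within those pairs the members' RNA-Seq medians were 0.045 and -0.092 over 7 transcripts, against -0.0049 and 0.045 for all transcripts. Their footprinting medians were 0.028 and 0.087 over 3 transcripts, against -0.0055 and -0.0071.

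Hk1 had the largest footprinting change of the members and, with RNA-Seq libraries as labelled, the largest RNA-Seq change. Its footprints were 4041 and 4931 in non-TG and 4854 and 6106 in GS/DA LRRK2 TG, and its RNA-Seq was 4357 and 4287 in libraries labelled non-TG against 5051 and 5358 in those labelled GS/DA LRRK2 TG. The footprinting groups overlapped by their middle libraries, and both RNA-Seq libraries labelled GS/DA LRRK2 TG lay above both labelled non-TG. Hk1 differed by 0.29 in footprints, 0.27 in RNA-Seq and 0.021 in TE. Of 7 recovered member transcripts in RNA-Seq, Hk1 was the 1 higher without overlap, beside 1.79% of all transcripts, and 0 were lower without overlap (1.61%), while in footprints 0 of 3 separated either way (12% of transcripts higher and 12.2% lower). Within pairs of libraries matched by their values, the Hk1 change was 0.26 and 0.31 in footprints. In RNA-Seq it was 0.30 between the shallower non-TG and the deeper GS/DA LRRK2 TG library. Between the deeper non-TG and the shallower GS/DA LRRK2 TG library it was 0.24. By limma its fitted footprinting change was 0.29 ± 0.17 (SE) with an adjusted p of 1, and 0.29 ± 0.071 (SE) with an adjusted p of 0.173 with the pairs as a block, higher in 2 of 2 pairs and short of 0.05. Gpi1 differed by 0.065 in footprints and 0.11 in RNA-Seq, Aldoa by 0.047 and 0.031, and Tpi1 by -0.026 and -0.030. Tpi1 RNA-Seq, at 13298 and 8234 in libraries labelled non-TG and 7296 and 13789 in those labelled GS/DA LRRK2 TG, was high in the shallower and in the deeper one respectively, with overlapping groups. Grouped by Lrrk2 level instead of label, the order changed. Those groups are the same 2 pairs of libraries that matched over all transcripts. Between the pairs, libraries of 1 label differed over all transcripts by a median size of 0.97 log2 in non-TG and 1.16 in GS/DA LRRK2 TG. The share of all transcripts without overlap under this grouping was not counted, so the values below describe no trait of single members. Tpi1 RNA-Seq was 8234 and 7296 where Lrrk2 was high and 13298 and 13789 where it was low, without overlap. Hk1 RNA-Seq was 4287 and 5051 where Lrrk2 was high and 4357 and 5358 where it was low, with overlap. Gapdh uc012gth.1 RNA-Seq was 3.19 and 2260.2 in libraries labelled non-TG and 2119.8 and 2.70 in those labelled GS/DA LRRK2 TG, so 1 library under each label held nearly all its reads, and its TE change was 0.24. The other Gapdh transcripts differed by 0.055 (uc009dts.1), 0.059 (uc007igj.1) and 0.10 (uc007dwf.1) in footprints. Pgk1 RNA-Seq was 8389.6 and 7169.6 in libraries labelled non-TG and 7405 and 8249 in those labelled GS/DA LRRK2 TG, with overlapping groups and a change of 0.0088. Eno1 footprints were 4724 and 5664 in non-TG and 4302 and 6016 in GS/DA LRRK2 TG, again overlapping, with a change of -0.0096, while Eno2 differed by 0.015 in footprints and 0.10 in RNA-Seq. Ldha footprints were 9644 and 8724 in non-TG and 9833 and 8952 in GS/DA LRRK2 TG, a change of 0.032 with overlapping groups, and Ldhb footprints differed by -0.032. Ldhb RNA-Seq, at 19055 and 14236 in libraries labelled non-TG and 12878 and 18669 in those labelled GS/DA LRRK2 TG, overlapped as well, with a change of -0.078.

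In this comparison limma tested 3 member transcripts in footprinting, 7 in RNA-Seq and 3 in TE, the others having more than 1 fitted pair of library values in some column, and called 0 of them. Over all transcripts limma called 0 (0%) in each, with 152 of 8387 in footprinting, 0 of 8448 in RNA-Seq and 0 of 8335 in TE at an unadjusted p under 0.05, of which 0 were members. With the pairs as a block limma called 36 transcripts in footprinting (0.429%) and 0 in RNA-Seq and TE, and 0 members in each. At an unadjusted p under 0.05 that fit had 1189 transcripts in footprinting (14.2%), including 1 member, Hk1, and 134 in RNA-Seq and 34 in TE, including 0 members. Cortical projection neuron markers (3 of 3 listed, highest Slc17a7) summed to 1056 and 1629.5 footprints in non-TG and 2574 and 4104 in GS/DA LRRK2 TG, and to 1965 and 915 against 2408 and 4030.5 RNA-Seq reads. They did not overlap in either assay, with a median change of 1.17 in RNA-Seq, and striatal markers (7 of 8) had a median of -0.17. The RNA-Seq sums of cortical markers thus followed the labels, unlike Lrrk2, and were higher in GS/DA LRRK2 TG within both matched pairs. Astrocyte and microglial RNA-Seq sums, given below, overlapped between the labels. Striatal spiny neuron markers (7 of 8, highest Ppp1r1b) had medians of -0.19 in footprints and -0.17 in RNA-Seq, where 7 of 7 were lower. Astrocyte markers (6 of 6, highest Slc1a2) had medians of 0.13 in footprints and 0.21 in RNA-Seq, with RNA-Seq sums of 5899 and 8066 against 10163 and 6621. Microglial markers (2 of 4, highest Csf1r, without Aif1 and P2ry12) had 0.19 and 0.17, with footprint sums of 1433 and 1670.3 against 1688 and 1799.8 and RNA-Seq sums of 1652 and 789 against 873 and 2019. Oligodendrocyte markers (4 of 4) had 0.072 and 0.12, blood markers (3 of 5) -0.32 and -0.22, Ttr -1.53 and -0.88, and Acta1 0.092 and -0.13. Hk1 and the cortical, astrocyte and microglial markers had higher means in GS/DA LRRK2 TG, and the part of these cells in the Hk1 values was not tested.

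**Figure D2:**
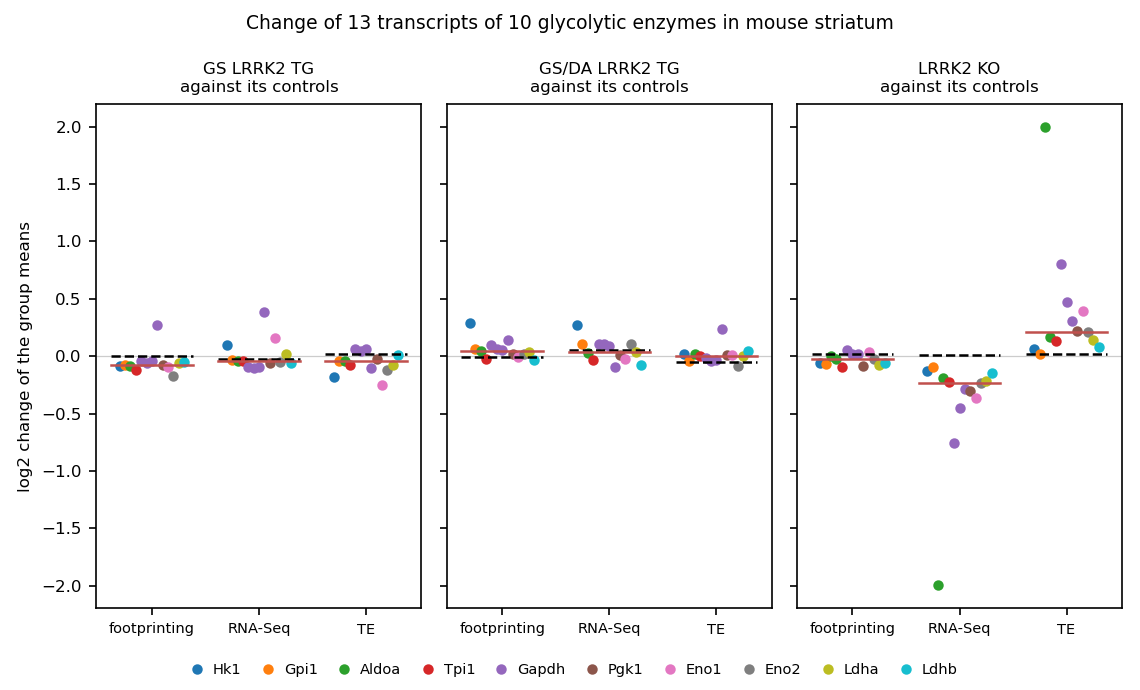
Log2 change of the means for the 13 member transcripts in footprinting, RNA-Seq and TE of each comparison, 1 point per transcript, with the members' median as a solid red line and the median of all transcripts as a dashed black line. In LRRK2 KO all 13 RNA-Seq changes lie below 0 and all 13 TE changes above 0, and Aldoa uc007nos.2 lies farthest out in both.

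Reads from processed copies of these genes can match the parent's CDS, and copies were therefore counted in the NCBIM37 (mm9) genome, the build of the authors' alignment. Every stretch of 28 bases in a member's CDS was searched on both strands of all chromosomes from 1 to 19, X and Y, and loci with at least 50 such stretches outside the gene counted as copies. Gapdh (chr6:125111871-125116485, minus strand, 999 coding bases) had 212 copies on 20 chromosomes, of which 44 matched more than 50% of its stretches, 12 at least 90% and 3 the whole CDS. Those 3 lie at chr4:91518362-91519360 (annotated as Gm12671), chr5:106291723-106292721 (Gm10359) and chr7:59002067-59003065 (Gm7336). Of the 212, 62 overlapped annotated pseudogenes and 105 no annotated gene, and which locus each of the Gapdh and Aldoa transcripts stands for was not assigned. Pgk1 had 4 copies, 2 of them with the whole CDS, Eno1 9, Ldha 20, Aldoa 9, Tpi1 2, and Gpi1 and Ldhb 1 each, while Hk1 and Eno2 had 0. The share of a CDS found elsewhere was 100% for Gapdh, 100% for Pgk1, 90.5% for Eno1, 64.1% for Ldha, 57.9% for Ldhb, 53.6% for Gpi1, 48.5% for Aldoa and 36.9% for Tpi1. The copy of Eno1 annotated as Gm13699 (chr2:80677298-80678599) matched 90.5% of its stretches, and Aldoart1 (chr4:72512347-72513574), which the tables list on its own, matched 18.3% of those of Aldoa. Eno1 and Eno2 shared no stretch of 28 bases with each other, and neither did Ldha and Ldhb. The first 28 coding bases of an enolase pair and of Pgk1 show the difference, with the start codon in capitals. Those of Eno1 (chr4:149613591-149613618, plus strand) occur at 3 other places, those of Pgk1 (chrX:103382590-103382617, plus strand) at 2, and those of Eno2 (chr6:124718313-124718340, minus strand) at 0. For Gapdh the stretch with most other places is shown, bases 418 to 445 of the CDS (chr6:125112935-125112962, minus strand), with its first codon in capitals, and it occurs at 135 other places.
Eno1: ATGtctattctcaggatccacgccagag
Eno2: ATGtctatagagaagatttgggcccgag
Pgk1: ATGtcgctttccaacaagctgactttgg
Gapdh: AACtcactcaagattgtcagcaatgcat

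The deposited score is a predicted folding energy of the 5' untranslated region, in kcal/mol, which does not differ between samples. It is labelled as a minimum over isoforms, so it need not be the energy of the listed transcript itself. The score was -730.83 for every Gapdh transcript alike and so does not tell them apart. It was -175.80 for Hk1, -155.90 for Eno1, -103.77 for Ldha and -83.60 for Aldoa. Pgk1 had -43.36, Ldhb -36.10, Gpi1 -20.70, Eno2 -13.00 and Tpi1 -7.50, beside a median of -90.40 over all transcripts of the LRRK2 KO table.

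With the members free of copies, Hk1 and Eno2, the median RNA-Seq change in LRRK2 KO was -0.18 and the TE change 0.14, on the same side of 0 as with all members. In GS LRRK2 TG the same restriction gave -0.13 in footprints and 0.022 in RNA-Seq, where the sign differed from that of all members, and -0.15 in TE, against -0.045 with all members. In GS/DA LRRK2 TG it gave 0.15, 0.19 and, in TE, -0.035, where the sign differed from the 0.0045 of all members.

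Genes around the members were taken from 6 lists, and values below are medians in footprints, RNA-Seq and TE in that order. In LRRK2 KO, 48.7% of all transcripts lay below WT in RNA-Seq and 53% above WT in TE. By z, 6.23% were called upward and 6.02% downward. With the low-value filter, the fitted medians of all transcripts were -0.069 in RNA-Seq and 0.081 in TE, the side on which most of these lists lay. In LRRK2 KO, other enzymes of glycolysis (10 of 23 symbols listed) had -0.070, -0.11 and -0.0071, with RNA-Seq below WT in 8 of 10 and TE above WT in 5 of 10, so their TE did not lean as the members' did. The TE changes farthest from the table's median among them were Pgam1 0.30, Ldhd -0.24, Pgam2 0.17 and Pfkp 0.16. Regulators of fructose 2,6-bisphosphate (3 of 6), which set the pace of the pathway, had 0.30, 0.12 and 0.17, with TE changes of Pfkfb3 0.26, Pfkfb2 0.17 and 9630033F20Rik 0.077. Transporters of glucose and monocarboxylates (6 of 9) had 0.036, -0.23 and 0.22, with 5 of 6 below WT in RNA-Seq, and 2, Emb and Slc2a3, were called upward by z at TE changes of 0.64 and 0.55. Genes of pyruvate entry into mitochondria (13 of 16) had 0.028, -0.16 and 0.19, with 10 of 13 below WT in RNA-Seq and 12 of 13 above WT in TE, and Pdk4, which restrains pyruvate dehydrogenase, had the farthest TE change at 0.85, from footprints. The pentose phosphate pathway (7 of 7) had -0.012, -0.13 and 0.12, and Rpia was its 1 gene called downward by z, with a TE change of -0.74. Cytosolic NADH shuttles (5 of 6), which carry the reducing equivalents that Gapdh forms, had 0.042, -0.17 and 0.24, with 5 of 5 below WT in RNA-Seq and 5 of 5 above WT in TE, the same side as the members. By limma, 0 transcripts of any list were called in this comparison without the block, where limma called 0 over all transcripts.

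In GS LRRK2 TG the same lists had medians of 0.0023, 0.036 and -0.025 for other enzymes of glycolysis (8 of 23), -0.19, -0.22 and 0.10 for regulators of fructose 2,6-bisphosphate (3 of 6) and 0.0040, 0.10 and -0.089 for transporters (5 of 9). Pyruvate entry (11 of 16) had -0.026, -0.13 and 0.14, with Pdp1 called upward by z at a TE change of 0.39, from -0.31 in footprints and -0.70 in RNA-Seq. The pentose phosphate pathway (6 of 7) had -0.0017, 0.091 and -0.13 and the NADH shuttles (5 of 6) -0.033, -0.060 and 0.046. Apart from Pdp1, no gene of the 6 lists passed the z threshold there, and 1 other passed a change of 0.5, Pgam2 at 0.54 in footprints and 0.43 in RNA-Seq, which is named here after its values were seen. In GS/DA LRRK2 TG the medians were 0.050, 0.024 and 0.0013 for other enzymes of glycolysis, -0.15, -0.16 and -0.031 for regulators of fructose 2,6-bisphosphate and -0.011, 0.10 and 0.058 for transporters. They were 0.0093, 0.11 and -0.046 for pyruvate entry, -0.0041, 0.052 and -0.044 for the pentose phosphate pathway and -0.0080, 0.020 and -0.026 for the NADH shuttles, and 0 of their transcripts passed the z threshold or a change of 0.5. Gpd2, which passes electrons from cytosolic NADH to the respiratory chain, had a footprinting change of 0.26 and an RNA-Seq change of 0.36 in GS/DA LRRK2 TG, beside the 0.29 and 0.27 of Hk1.

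The transcripts most like the members over all tables were found by Euclidean distance over the 6 footprinting and RNA-Seq changes to the members' median profile, among 1663 transcripts with means of at least 500 throughout. They were Ppp2r1a at a distance of 0.0538, Ubb uc007jjg.1 at 0.0800, Dusp3 at 0.0826, Ubb uc007thb.2 at 0.0832 and Zcchc18 at 0.0858, against a median of 0.349 over the candidates. The members' own distances ran from 0.0541 for Aldoa uc009jst.2 to 0.543 for Gapdh uc007dwf.1, with a median of 0.141, and they are near the profile by construction.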

How the data were processed

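Ribosome footprinting and RNA-Seq were measured in pools of mouse striatum. Per the submitters' processing notes, reads were called with CASAVA 1.8, aligned to mm9 with TopHat2 2.0.11 and Bowtie2 2.2.2, and normalized with DESeq 1.20. The signal deposited by the authors is a mean of DESeq-normalized CDS reads per genotype and assay, after transcripts under 128 reads had been discarded. The score deposited by the authors is a predicted folding energy. Their columns of TE, its difference and its z score hold the authors' own comparisons and were not used.

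Changes, TE and z were recomputed from the means without a pseudocount. Reads of single libraries were recovered by finding the pair of whole numbers that fits each mean, and 98.0% to 99.9% of transcripts had exactly 1 fitting pair, against 0.105% to 4.42% when 0.13 was added to every mean. Values with more than 1 fitting pair were left out. Depth per library is given in the report, and with 2 libraries in a group it was the spread between libraries that set the precision. The recovery and the test were also run on simulated data. With 2 simulated libraries, 99.5% to 99.8% of transcripts were resolved, 100% of them rightly. The simulated test changed footprints alone and had no shared difference between libraries of 1 genotype. It therefore does not show how well limma finds changes in these data. Genotypes were tested within a table with limma 3.58.1 in R 4.3.3 on log2 of normalized reads plus 10, with an interaction of genotype and assay for TE and adjustment over all transcripts. Copies were searched in NCBIM37 with the GENCODE M1 annotation. Python 3.11.15, pandas 2.3.3, NumPy 2.4.6, SciPy 1.17.1, numba 0.67.0 and matplotlib 3.10.9 were used.

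Members and lists were chosen with earlier results of these data known. Every member was named, up to 4 genes per context list were those farthest from the table's median TE change, and the 5 most alike transcripts had the smallest distance to the members' median profile. The context lists were other enzymes of glycolysis, regulators of fructose 2,6-bisphosphate, glucose and monocarboxylate transporters, pyruvate entry into mitochondria, the pentose phosphate pathway and cytosolic NADH shuttles. Alternatives changed the pseudocount, low-value filter, scaling, copies, libraries and block. Of the marker lists, 2 genes are not reported here and were left out of every sum and median.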

Additional observations from a re-analysis of the deposited data

How the results depend on the processing

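Of 151 alternatives, 79 of 89 medians stayed within the spread between libraries. That spread can exceed the median, as at 0.58 for a median of -0.23 in LRRK2 KO RNA-Seq. In GS/DA LRRK2 TG the sign turned in 2 of 11 alternatives for footprints, 5 of 11 for RNA-Seq and 6 of 15 for TE. In LRRK2 KO it turned in 2 of 11, 2 of 11 and 2 of 15, and in GS LRRK2 TG in 0, 1 and 0 of 5. The main limma fits called 0 transcripts in all, so unchanged counts of 0 members say nothing about stability. In GS/DA LRRK2 TG the footprinting median of 0.047 became 0.15 over members without copies and, over the 3 recovered transcripts, -0.10 with reads scaled to library totals, where the median of all transcripts was -0.14, and without 1 library it ran from -0.00031 to 0.13. Without 1 library, the RNA-Seq median ran from -0.12 to 0.21 and the TE median from -0.18 to 0.15 in GS/DA LRRK2 TG. In LRRK2 KO the ranges were -0.18 to 0.037 in footprints, -0.67 to 0.43 in RNA-Seq and -0.51 to 0.62 in TE, while the other alternatives kept RNA-Seq between -0.24 and -0.18. With the matched libraries as a block, limma called 1 member in LRRK2 KO RNA-Seq instead of 0, and the block changed no other call of a member. The cause was not tested. Medians over members with 1 transcript and over fully recovered transcripts were chosen after seeing the data. Leaving out 1 library leaves 1 sample in a group, and limma then assumes that it varies like the other groups. No paired analysis was possible because the recovered libraries carry no replicate number that would pair them by label, and the block rests on pairs matched by the values alone. Scaling to totals and limma could not be applied to GS LRRK2 TG, since the controls of that table are known as means alone. Leaving out 1 of its GS LRRK2 TG libraries was not run. Those libraries differed in RNA-Seq: Eno2 held 24412 and 9507 normalized reads around a non-TG mean of 17593. Tpi1 held 12685 and 7643 around 10485, whereas Hk1 held 4457 and 4637.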
